A study of Mus musculus with 7 samples.

Results

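Integrins are transmembrane receptors made of an alpha and a beta chain that tie the cytoskeleton to the extracellular matrix. The 10 genes described here encode a chosen set of chains that bind matrix outside hemidesmosomes in bulk RNA of mouse skin tumours: the beta chains Itgb1, Itgb3, Itgb5, Itgb6 and Itgb8 and the alpha chains Itgav, Itga2, Itga5, Itga8 and Itga9. They were taken by name from the 55423 features of the gene table, with earlier results of these data known, and other matrix-binding chains, such as Itga1, Itga3 and Itga7, were not in the set. All 10 passed the filter of at least 5 reads in at least 1 tumour. Total RNA was sequenced after ribosomal RNA depletion from tumours labelled as cutaneous squamous cell carcinoma, and 3 Ivl:BRAFV600E tumours were compared with 3 Ivl:BRAFV600E-SOX2LSL tumours, each from another mouse on a C57BL/6J background. The comparison asks what differs in tumours of the IVL+ population when SOX2 is added to the oncogene. In both groups topical tamoxifen activated a Cre recombinase under the involucrin promoter (Ivl-CreERT2) in mice of 7 to 10 weeks by the sample labels (the methods of the study give a somewhat older range), which turned on BRAFV600E in the IVL+ skin cells. The Ivl:BRAFV600E-SOX2LSL mice were also heterozygous for a Rosa26 allele from which the recombinase releases SOX2 and eGFP. Ivl:BRAFV600E tumours 1 and 2 came from mice with a heterozygous Rosa26 reporter for a red fluorescent protein, and tumour 3 from a mouse without it. Tumours were grown to clinical endpoint. Every Ivl:BRAFV600E-SOX2LSL tumour was collected sooner after induction than every Ivl:BRAFV600E tumour, so time since induction and genotype cannot be told apart.

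Which beta chain an alpha chain pairs with sets what a cell can bind. Integrin beta-1 is the common partner of most alpha chains in skin, and with alpha-2 it binds collagen, with alpha-5 fibronectin, with alpha-8 nephronectin and other RGD proteins, and with alpha-9 tenascin-C. Integrin alpha-v pairs with beta-1, beta-3, beta-5, beta-6 or beta-8. These alpha-v receptors bind RGD motifs in vitronectin, fibronectin and osteopontin, and those with beta-6 or beta-8 bind and activate latent TGF-beta. Keratinocytes in resting epidermis hold integrins mostly in the basal layer.

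The sequences upstream of Itga5 and Itgb6, the members with the smallest adjusted p between the genotypes, and of Itgb1, the most abundant member, show the DNA next to their annotated starts. Each is the 250 bases before a RefSeq start on GRCm38.p6, written from 5′ to 3′ on the gene's strand. They cover chr15:103366792-103367041 (minus strand) for Itga5, chr2:60722604-60722853 (minus strand) for the upstream one of the 2 Itgb6 starts, and chr8:128685404-128685653 (plus strand) for Itgb1. Capitals mark the letters ACAATG or ACAAAG, forms of the SOX core, on either strand.
Itga5: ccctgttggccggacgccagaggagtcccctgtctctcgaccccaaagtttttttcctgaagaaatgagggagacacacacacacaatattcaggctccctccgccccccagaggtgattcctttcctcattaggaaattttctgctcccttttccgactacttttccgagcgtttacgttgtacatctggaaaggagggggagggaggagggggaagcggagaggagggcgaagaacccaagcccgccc
Itgb6: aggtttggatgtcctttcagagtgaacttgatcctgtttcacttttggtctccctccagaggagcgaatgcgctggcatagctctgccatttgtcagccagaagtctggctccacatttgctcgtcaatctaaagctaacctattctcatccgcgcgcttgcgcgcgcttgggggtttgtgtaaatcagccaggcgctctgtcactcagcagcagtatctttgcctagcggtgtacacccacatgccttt
Itgb1: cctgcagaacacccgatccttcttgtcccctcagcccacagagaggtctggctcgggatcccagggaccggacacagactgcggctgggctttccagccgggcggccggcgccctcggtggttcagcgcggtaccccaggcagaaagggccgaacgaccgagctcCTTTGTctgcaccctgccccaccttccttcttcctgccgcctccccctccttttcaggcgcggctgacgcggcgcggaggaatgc
RefSeq promoters of 300 bases (250 before to 50 after a start) matched 9 of the 10 members, with 10 promoters in all. Itgb3 had no entry. The SOX letters occurred in 2 of the 10 promoters, as ACAAAG 85 bases before the Itgb1 start (on the other strand, printed as CTTTGT) and as ACAATG 205 bases before the Itga8 start. Among all 32851 RefSeq promoters of this length, 28.6% held at least 1 of the 2 forms. TGANTCA, the AP-1 letters, stood in 1 of the 10 promoters, that of Itga9, against 7.81% of all. There the letters lay 38 bases after the RefSeq start. The Itga9 promoter used (chr9:118711442-118711741, plus strand) lies inside the gene, which begins at 118606690, so the DNA at the gene's 5′ end was not searched. Such matches describe letters only, and the promoters of Itga5 and Itgb6 held none of the 3 motifs.

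All values below rest on the deposited read counts, which totalled between 23565432 and 31152826 per tumour, and levels are given as CPM, counts per 1 M library counts after TMM scaling. The smallest level told from 0 here, 3 counts, was 0.0839 to 0.143 CPM, counting error only, and the members had 47 to 40823 counts. Sox2, the induced gene, had 0.716, 0.508 and 0.238 CPM in the Ivl:BRAFV600E tumours and 182, 155 and 158 CPM in the Ivl:BRAFV600E-SOX2LSL tumours. Keratinocyte markers were present in every tumour. The summed level of 5 basal keratinocyte markers was 16370 to 34310 CPM without and 9416 to 25550 CPM with the SOX2 allele, and the sums overlapped. Most of this sum was Krt14 (log2 fold change -0.65), while the other 4 markers were above 0. Of the 5, edgeR called 1 higher (Cdh3, adjusted p = 0.0272) and DESeq2 called 2 higher. The sum of 5 suprabasal markers was 64230 to 86250 against 1861 to 21210 CPM, with 0 of 5 above 0. Of these 5, 2 were called lower by edgeR (4 at an unadjusted p under 0.05) and 4 by DESeq2. Of 5 wound keratinocyte markers 0 were above 0, with sums of 34980 to 73110 against 10240 to 36530 CPM, which overlapped. EdgeR called 1 of them lower (Sprr1b) and DESeq2 3. The part of these cells in the levels of the members was not tested. Krt14, Cdh3 and Sprr1b were named after their values were seen. Ivl:BRAFV600E-SOX2LSL tumour 1 stood apart, with the lowest suprabasal, basal and wound keratinocyte sums (1861, 9416 and 10240 CPM) and the highest macrophage sum (349 CPM). The members are also given without this tumour.

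Of the 10 members, 3 rose in Ivl:BRAFV600E-SOX2LSL tumours with an edgeR adjusted p below 0.05, namely Itga5, Itgb6 and Itgb3, and 0 fell. The list was not chosen blind to these data, so the shares over all genes serve only as a background. Over all 24433 genes tested, 2.39% rose and 3.9% changed in either direction by the same rule. The log2 fold change was above 0 for 9 of the 10, with Itgb5 the exception, and the median over the members was 0.94 against 0.04 over all genes. In 7 of the 10 every Ivl:BRAFV600E-SOX2LSL tumour lay above every Ivl:BRAFV600E tumour, which was so for 18.2% of all genes (34.2% in either direction). An unadjusted p under 0.05 was found for 7 of the 10, against 25.7% of all genes. These are levels in bulk tumour, where a change in the number of cells of a type and a change in RNA per cell cannot be told apart.

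**Figure D1:**
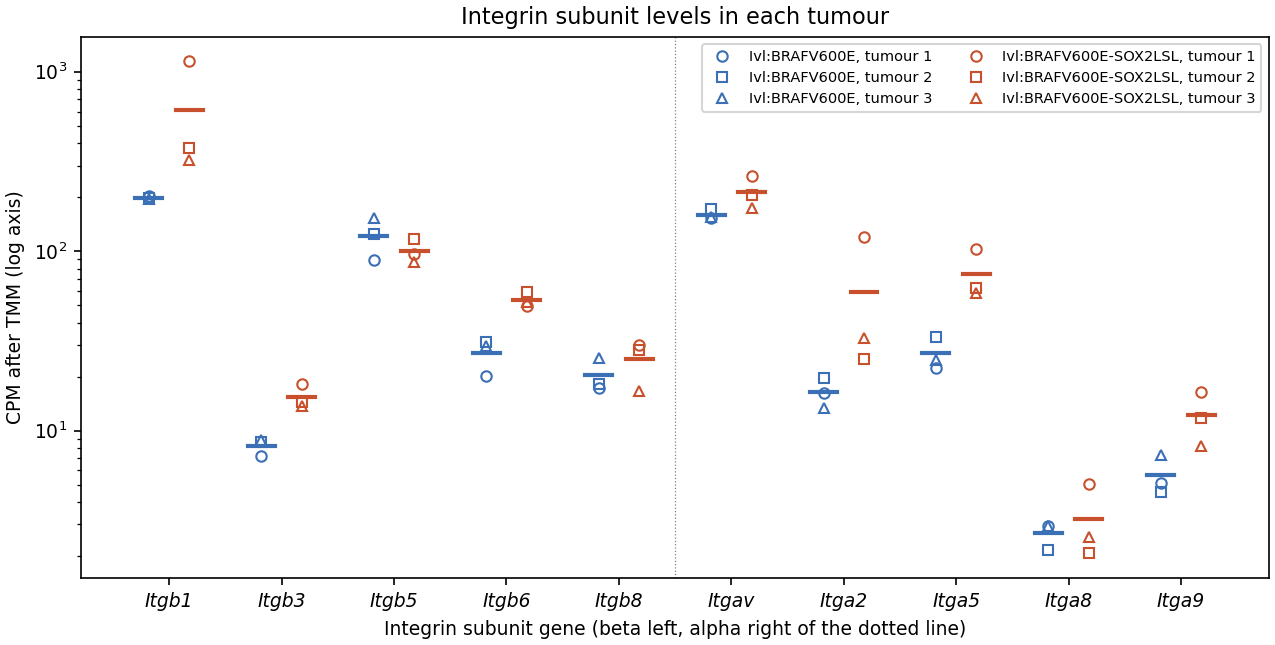
Level of each member in each of the 6 tumours, in CPM after TMM on a log axis, with beta chains on the left and alpha chains on the right of the dotted line. Symbols are single tumours, numbered within their genotype only as names, and bars are means of 3 tumours. Tumour 1 of the SOX2LSL group was the highest of its group in 8 of the 10 genes, most visibly for Itgb1 and Itga2.

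The calls of the members, as those of all genes, changed when single tumours were left out. Without Ivl:BRAFV600E-SOX2LSL tumour 1, 4 of the 10 members were called, the 3 above and Itgb1, against 3.59% of all genes called higher in that fit. Without Ivl:BRAFV600E-SOX2LSL tumour 3 only Itga5 was called (1.71% of all genes in either direction), and without Ivl:BRAFV600E tumour 1, 2 or 3 or Ivl:BRAFV600E-SOX2LSL tumour 2 none was, although 5 to 7 of the 10 had an unadjusted p under 0.05 in those 4 fits. In the same fits 0.0918% to 0.84% of all genes were called, and 18% to 23.6% had an unadjusted p under 0.05, so calls were lost over the whole table. Sex was unevenly spread (2 females and 1 male without, 1 female and 2 males with the SOX2 allele), and with sex as a covariate 0 of the 10 had an edgeR adjusted p below 0.05 while 5 had an unadjusted p below it. Of all genes 0.933% were called in that fit and 18.6% had such an unadjusted p, and the log2 fold changes were 1.40 for Itga5, 0.94 for Itgb6 and 0.83 for Itgb3, close to those without the covariate. DESeq2 called 6 of the 10, adding Itgb1, Itga2 and Itga9 to the 3, and called 8.59% of all genes higher.

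Of the 5 beta chains that pair with alpha-v, 2 rose, and the estimates of the 5 ran from -0.29 to 1.63 on the log2 scale. Itgb6, the epithelial TGF-beta-activating chain (ENSMUSG00000026971, chromosome 2, 60598292 to 60722643, minus strand), was at 20.2, 31.1 and 29.7 CPM in the Ivl:BRAFV600E tumours and at 49.2, 59.1 and 51.8 CPM in the Ivl:BRAFV600E-SOX2LSL tumours. All 3 tumours with the SOX2 allele were above the highest tumour without it. The mean went from 27.0 ± 5.93 to 53.3 ± 5.13 CPM (SD, n = 3 each), a 1.97-fold rise. On the log2 scale this was 0.98 (standard error, SE, 0.19, edgeR adjusted p = 0.0410), with a range of 0.81 to 1.10 over the 6 fits that each omitted 1 tumour and 1.035 without Ivl:BRAFV600E-SOX2LSL tumour 1.
Itgb3, a chain known from platelets, vessel wall and osteoclasts (ENSMUSG00000020689, chromosome 11, 104608000 to 104670476, plus strand), had 7.23, 8.59 and 8.89 CPM against 18.2, 14.4 and 13.7 CPM. The groups did not overlap, and the lowest tumour with the SOX2 allele was above the highest without it by more than the range within the Ivl:BRAFV600E group. It rose 1.87-fold, from 8.24 ± 0.883 to 15.4 ± 2.43 CPM (SD, n = 3 each), with a log2 fold change of 0.91 (SE 0.18, edgeR adjusted p = 0.0460). Without Ivl:BRAFV600E-SOX2LSL tumour 1 it was 0.77. With upper-quartile scaling in place of TMM, neither Itgb3 (log2 fold change 0.80, edgeR adjusted p = 0.0514) nor Itgb6 (0.88, adjusted p = 0.0530) stayed below 0.05. The median of all genes moved from 0.04 to -0.06. Of all genes 3.99% were called in that fit, against 3.9% with TMM, so calls over the whole table did not fall. Markers of other cells that carry Itgb3 gave these values. The summed level of 7 endothelial markers was 170 to 186 CPM against 172 to 208 CPM, with 0 of 7 called by edgeR (2 at an unadjusted p under 0.05) and 1 by DESeq2 (Kdr, lower). For 6 platelet markers it was 4.88 to 11.1 against 9.78 to 14.5 CPM, with 0 of 6 called by edgeR (2 at an unadjusted p under 0.05) and 1 by DESeq2 (Pf4, higher). Of the 6, 4 were below 0, and the median log2 fold change was -0.49. These 4 included Gp1bb, Gp9 and Gp5, with at most 9, 12 and 25 counts in a tumour. Of the exon bases of Gp1bb, 91.1% overlap Sept5, and DESeq2 gave no adjusted p for 2 of the 6. For 7 pericyte and smooth muscle markers the summed level was 450.5 to 543 CPM against 403.5 to 508 CPM, with 4 above and 3 below 0 on the log2 scale. Of these 7, 0 were called by edgeR (2 at an unadjusted p under 0.05) and 1 by DESeq2 (Cspg4, lower). The 5 macrophage markers were all above 0 with no overlap between groups, at sums of 44.7 to 84.5 against 119 to 349 CPM. Of these 5, edgeR called 1 higher and DESeq2 4. Kdr, Pf4, Gp1bb, Gp9, Gp5 and Cspg4 were named after their values were seen. The part of all these cell types in the level of Itgb3 was not tested.
Itgb1, the common partner (ENSMUSG00000025809, chromosome 8, 128685654 to 128733200, plus strand), gave 202, 197 and 195 CPM in Ivl:BRAFV600E tumours and 1142, 373 and 321 CPM in the Ivl:BRAFV600E-SOX2LSL tumours. The tumours without the SOX2 allele were nearly equal, and all 3 with it were higher, tumour 1 by far the most. Its log2 fold change of 1.63 had an SE of 0.47 and an edgeR adjusted p of 0.0956. Without Ivl:BRAFV600E-SOX2LSL tumour 1 the difference was smaller, 0.81 on the log2 scale, and the adjusted p was 0.0121.
Itgb8, the other chain that activates TGF-beta (ENSMUSG00000025321, chromosome 12, 119158022 to 119238802, minus strand), had 17.3, 18.2 and 25.4 CPM against 30.1, 28.1 and 16.7 CPM. The groups overlapped, since the lowest of all 6 tumours was one with the SOX2 allele. The log2 fold change was 0.30 (95% interval -0.32 to 0.91, edgeR adjusted p = 0.505), and 0.14 without Ivl:BRAFV600E-SOX2LSL tumour 1.
Itgb5, a vitronectin receptor chain (ENSMUSG00000022817, chromosome 16, 33829665 to 33949338, plus strand), had 89.5, 124 and 153 CPM against 96.1, 117 and 87.3 CPM. It was the only member with a mean below that of the Ivl:BRAFV600E tumours, and the groups overlapped. Its log2 fold change was -0.29, with a 95% interval of -0.80 to 0.22 and an edgeR adjusted p of 0.435, and -0.26 without Ivl:BRAFV600E-SOX2LSL tumour 1.

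Among the alpha chains, 1 of 5 passed the test, that of the fibronectin receptor. Itga5 (ENSMUSG00000000555, chromosome 15, 103344286 to 103366763, minus strand) had 22.4, 33.4 and 24.9 CPM in the Ivl:BRAFV600E tumours and 103, 62.2 and 58.4 CPM in the Ivl:BRAFV600E-SOX2LSL tumours. Every tumour with the SOX2 allele was well above the highest tumour without it. Its mean rose 2.77-fold, from 26.9 ± 5.72 to 74.5 ± 24.7 CPM (SD, n = 3 each). The log2 fold change was 1.47 (SE 0.26, edgeR adjusted p = 0.0342), and it ranged from 1.17 without Ivl:BRAFV600E-SOX2LSL tumour 1 to 1.65.
Itga2, the alpha chain of the collagen receptor alpha-2/beta-1 (ENSMUSG00000015533, chromosome 13, 114833081 to 114932100, minus strand), had 16.3, 19.7 and 13.4 CPM against 120, 25.01 and 32.9 CPM. The groups did not overlap, but tumour 1 of the SOX2LSL group was far above the others. This was the largest estimate among the members, a log2 fold change of 1.85, with a standard error of 0.58 and an edgeR adjusted p of 0.1102. Without that tumour it was 0.81 (adjusted p = 0.0612).
Itga9, a tenascin-C receptor chain (ENSMUSG00000039115, chromosome 9, 118606690 to 118901003, plus strand), had 5.12, 4.57 and 7.32 CPM against 16.5, 11.8 and 8.20 CPM. All 3 tumours with the SOX2 allele were higher, the lowest of them by little. The log2 fold change was 1.10 (SE 0.31, edgeR adjusted p = 0.0886), and 0.82 without Ivl:BRAFV600E-SOX2LSL tumour 1 (adjusted p = 0.133).
Itgav, the shared alpha chain of the RGD receptors (ENSMUSG00000027087, chromosome 2, 83724397 to 83806916, plus strand), had 153, 171 and 154 CPM against 262, 205 and 174 CPM. The groups did not overlap, by a narrow margin. Itgav and Itga8 share 5.9% and 5.05% of their exon bases with genes on the other strand, and the sources used here do not say if counting used strand. Its log2 fold change, 0.42 (95% interval 0.02 to 0.83, edgeR adjusted p = 0.181), was smaller than those of Itgb1, Itgb3 and Itgb6, 3 of its beta partners, although the differences between these estimates were not tested. Without Ivl:BRAFV600E-SOX2LSL tumour 1 it was 0.25 (adjusted p = 0.274).
Itga8, a chain known from kidney and smooth muscle (ENSMUSG00000026768, chromosome 2, 12106632 to 12301922, minus strand), was the lowest member, with 2.93, 2.17 and 2.95 CPM against 5.01, 2.07 and 2.56 CPM. The groups overlapped. Its log2 fold change of 0.26 (edgeR adjusted p = 0.699) became -0.21 without Ivl:BRAFV600E-SOX2LSL tumour 1.

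**Figure D2:**
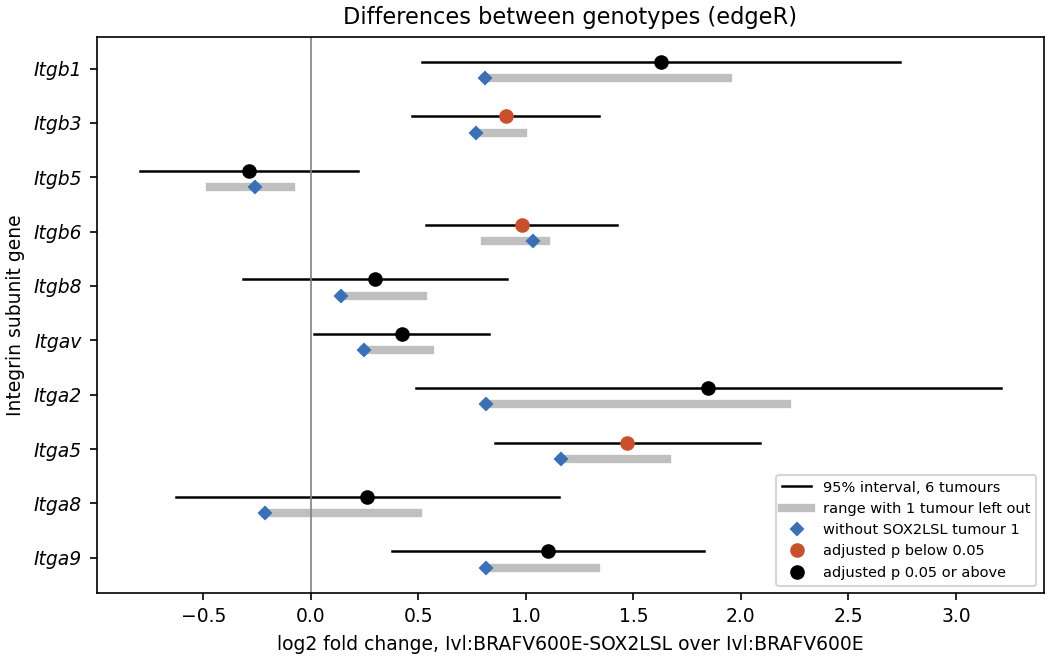
Log2 fold change of each member (Ivl:BRAFV600E-SOX2LSL over Ivl:BRAFV600E, edgeR). Circles and black lines give the estimate and its 95% interval from 6 tumours, red where the adjusted p was below 0.05, grey bars the range when 1 tumour was left out, and blue diamonds the value without tumour 1 of the SOX2LSL group. Itgb1 and Itga2 moved most with that tumour, to 0.81 each, while Itgb6 hardly moved.

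To compare levels between genes, CPM were divided by the exon length in kilobases (RPKM-like levels after TMM). In Ivl:BRAFV600E tumours the order of mean levels was Itgb1 (48.5), Itgb5 (34.4), Itgav (14.8), Itga5 (5.45), Itgb6 (3.80), Itga2 (2.31), Itgb8 (1.84), Itgb3 (1.40), Itga9 (0.737) and Itga8 (0.364). Only Itga2 and Itgb8 overlapped as neighbours in this order. Itgb6 and Itgb8 have more exon sequence over all isoforms (7111 and 11060 bases) than in their longest transcript (4806 and 8403 bases), which lowers their level on this scale. In Ivl:BRAFV600E-SOX2LSL tumours it ran Itgb1 (150), Itgb5 (28.2), Itgav (19.9), Itga5 (15.1), Itga2 (8.30), Itgb6 (7.50), Itgb3 (2.61), Itgb8 (2.26), Itga9 (1.58) and Itga8 (0.436). There the neighbours from Itgav to Itgb6 overlapped, as did Itgb3 with Itgb8 and Itgb8 with Itga9, so those ranks are not told apart. By this exon length, Itgb8 and Itgb3 were the pair nearest in level over the 6 tumours, at means of 2.05 and 2.00. Their longest transcripts (8403 and 5784 bases) would raise Itgb8 more than Itgb3, so ranks and the nearest pair may depend on the length used. Itgb8 was the higher of the pair in each Ivl:BRAFV600E tumour (1.56 to 2.30 against 1.22 to 1.51), and in the SOX2LSL group the tumours overlapped (1.51 to 2.72 against 2.31 to 3.08).

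Since alpha-v can take any of the 5 beta chains, the level of each per length was also expressed as a share of their sum within a tumour, which does not depend on the scaling of libraries. Itgb1 also pairs with many other alpha chains, so its share is not a share of alpha-v receptors. It made up 61.7%, 53.3% and 48.3% of the sum in Ivl:BRAFV600E tumours and 87.6%, 66.4% and 68.8% in Ivl:BRAFV600E-SOX2LSL tumours. Itgb5 made up 31.3%, 38.5% and 43.6% against 8.46%, 23.9% and 21.5%. For both the groups did not overlap. The mean share of Itgb1 was 19.9 percentage points higher (exact two-sided permutation test, p = 0.1, the smallest that 3 against 3 allow, and 0.25 after Benjamini-Hochberg adjustment over the 5 chains), and 13.2 points higher without Ivl:BRAFV600E-SOX2LSL tumour 1. The share of Itgb5 was lower by the mirror of this, -19.9 points (-15.1 without that tumour). Shares add up to 100%, so this is no separate result: the level of Itgb5 itself overlapped between the groups, at means of 34.4 and 28.2 on the length scale, while that of Itgb1 was 48.5 and 150. Itgb6 went from 4.20% ± 0.642 to 4.85% ± 2.34 (SD, n = 3 each, exact permutation p = 0.7), Itgb3 from 1.55% to 1.59% (p = 1) and Itgb8 from 2.03% to 1.34% (p = 0.2). The shares of Itgb3, Itgb6 and Itgb8 overlapped between the groups.

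**Figure D3:**
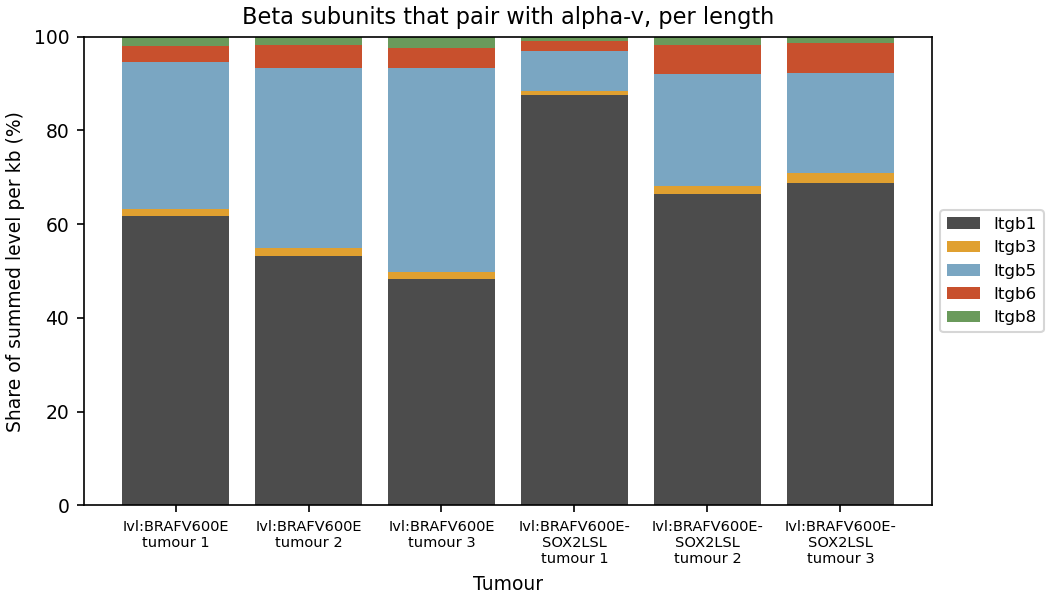
Share of each alpha-v partner chain in the summed length-scaled level of Itgb1, Itgb3, Itgb5, Itgb6 and Itgb8, in percent, for each of the 6 tumours. Each bar is 1 tumour and adds up to 100%. Itgb1 made up 48.3% to 61.7% of the sum without and 66.4% to 87.6% with the SOX2 allele, and Itgb5 made up 31.3% to 43.6% and 8.46% to 23.9%.

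The members differed in how closely they followed each other across the 6 tumours. The closest pairs on log2 CPM were Itgb3 with Itga5 (Pearson r = 0.98), Itgb1 with Itga2 (0.97) and Itgb1 with Itgav (0.96), while Itgb5 ran from -0.48 with Itga2 to 0.38 with Itgb8. These points share their libraries and the split by genotype, so r describes 6 tumours and carries no test. Among 14430 genes with a mean of at least 1 CPM, the 3 whose pattern was most like that of Itga2, the member with the largest estimate, were Cers2, Dusp4 and Aig1 (r = 0.997 each). For Itgb5, the member with the only negative estimate, they were Ccdc171 (0.976), Gm38317 (0.968) and D10Jhu81e (0.968).

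The other integrin chains of the table had 1 of 15 tested called (17 listed), and 3 without Ivl:BRAFV600E-SOX2LSL tumour 1, with Itgb2 and Itgb4 added (Itgb4 is named after its values were seen). Of the 15, 14 were above 0, and the median was 0.96 on the log2 scale. Itga7, the laminin receptor chain of skeletal muscle, had 7.81, 4.16 and 5.18 CPM against 17.4, 26.8 and 21.8 CPM. It rose by a log2 fold change of 1.94 (SE 0.28, edgeR adjusted p = 0.0251), and passed in 1 of the 6 leave-one-out fits. Skeletal muscle markers moved with genotype, with 7 of 8 called and a summed level of 1.26 to 10.7 CPM against 704 to 2904 CPM, and Myh4 at 0 counts in all 3 Ivl:BRAFV600E tumours. Their part in the levels of Itga7 and of the members, Itgb1 among them, was not tested.
The next smallest p values were those of Itgb2, the common beta chain of leukocytes, with 3.65, 4.39 and 7.51 CPM against 31.1, 14.2 and 13.8 CPM (log2 fold change 1.93, edgeR adjusted p = 0.0524, below 0.05 without that tumour), and of Itgam, its partner on macrophages and neutrophils (2.01, adjusted p = 0.0568). Of the exon bases of Itgam, 68.7% overlap Gm49368 on the same strand, so its count is uncertain. Of the 7 leukocyte integrins tested, 0 were called by edgeR (5 at an unadjusted p under 0.05) and 4 by DESeq2, all 4 higher, and all 7 had a log2 fold change above 0. Of 4 pan-leukocyte markers 2 were called higher by edgeR and 4 by DESeq2, with a summed level of 26.7 to 51.7 against 82.7 to 147 CPM, and of 5 macrophage markers 1 was called higher by edgeR and 4 by DESeq2 (44.7 to 84.5 against 119 to 349 CPM). All 9 had an unadjusted p under 0.05 and no overlap between groups, none was at 0, and their part in the members' levels was not tested.

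Inside the cell, integrin tails are switched on by talins and kindlins, and adaptors then link them to actin and to FAK and SRC signalling. Of 31 such genes, edgeR called 3 higher and 0 lower, with 19 at an unadjusted p under 0.05 (25.7% of all genes). DESeq2 called 12 higher and 1 lower, and limma 7 higher and 1 lower, the lower one being Csk, an inhibitor of SRC kinases, in both (named after its values were seen, edgeR log2 fold change -0.54, adjusted p = 0.0690). Without Ivl:BRAFV600E-SOX2LSL tumour 1 edgeR called 8 higher and 0 lower. In all, 29 of 31 had a log2 fold change above 0, and the median was 0.57. The 3 that edgeR called were activators that bind beta tails directly. Fermt1, kindlin-1 of epithelia, had 24.1, 24.2 and 19.8 CPM against 130, 74.4 and 64.4 CPM (log2 fold change 1.98, SE 0.28, edgeR adjusted p = 0.0221). Fermt2, kindlin-2, which is widespread, had 10.8, 10.1 and 9.41 CPM against 44.8, 26.6 and 21.8 CPM (1.62, SE 0.27, adjusted p = 0.0303). Tln1, talin-1, had 131, 141 and 144 CPM against 330, 238 and 247 CPM (0.97, SE 0.16, adjusted p = 0.0290). For each of the 3 the groups were clearly apart, and tumour 1 of the SOX2LSL group was the highest. Over the 6 leave-one-out fits, Fermt1 passed in 3, Fermt2 in 2 and Tln1 in 1. Ilk is counted among the 31, but 76.7% of its exon bases overlap Taf10 and its count is uncertain.

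Matrix ligands of these receptors were higher on average without passing the test: 0 of 17 were called by edgeR, 15 of 17 had a log2 fold change above 0 and the median was 1.13. By unadjusted p under 0.05, 6 of 17 passed, against 25.7% of all genes. DESeq2 called 5, all higher, against 8.59% of all genes called higher. The smallest p belonged to Tnc, tenascin-C and a ligand of alpha-9/beta-1 and alpha-v receptors, with 115, 36.7 and 228 CPM against 1141, 448 and 453 CPM (log2 fold change 2.43, edgeR adjusted p = 0.0886). Thbs1, thrombospondin-1, followed with 1.35 (adjusted p = 0.0982), and was called at 0.69 without Ivl:BRAFV600E-SOX2LSL tumour 1. In that fit Ccn1, a ligand of several of these receptors, was called lower at -1.06 (named after its values were seen, against -0.06 with all tumours). The next was Fn1, fibronectin and the ligand of alpha-5/beta-1, with 206, 182 and 321 CPM against 754, 452 and 341 CPM (1.13, adjusted p = 0.103). The groups did not overlap for Tnc, Thbs1 and Fn1, and tumour 1 of the SOX2LSL group was the highest. The summed level of 7 fibroblast markers, cells that make much of this matrix, was 72.0 to 365 CPM against 386 to 528 CPM, with none at 0. By edgeR 0 of the 7 were called (3 at an unadjusted p under 0.05) and by DESeq2 2, both higher, and their part in the levels of the ligands and of the members was not tested.

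The TGF-beta that alpha-v/beta-6 and alpha-v/beta-8 release is stored as a latent complex. Of 9 genes for TGF-beta ligands and the proteins that anchor them, 0 were called by edgeR. An unadjusted p under 0.05 was found for 3 of the 9 (25.7% of all genes). DESeq2 called 2 (Tgfb1 and Nrros, both higher), and the median log2 fold change was 0.51. Tgfb1 had 23.7, 27.9 and 21 CPM against 68.7, 34.8 and 41.9 CPM, with no overlap and a log2 fold change of 1.002 (edgeR adjusted p = 0.0776). Nrros, which anchors latent TGF-beta on macrophages and microglia, stood at 1.03 (adjusted p = 0.108) and Tgfb3 at 0.76 (0.187). Among 10 genes known to respond to TGF-beta, 2 rose and 0 fell by edgeR and by DESeq2, and 7 of 10 were above 0. Named after their values were seen, these were Tgfbi, a secreted RGD-containing matrix protein, with 103, 121 and 133 CPM against 323, 428 and 309 CPM (log2 fold change 1.57, SE 0.18, edgeR adjusted p = 0.0131), and Smad7, the inhibitory SMAD, with 42.6, 59.7 and 50.2 CPM against 93.9, 105 and 77.2 CPM (0.86, SE 0.18, adjusted p = 0.0467). In both genes the groups were apart. Over the 6 leave-one-out fits, Tgfbi passed in 4 and Smad7 in 1.

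**Figure D4:**
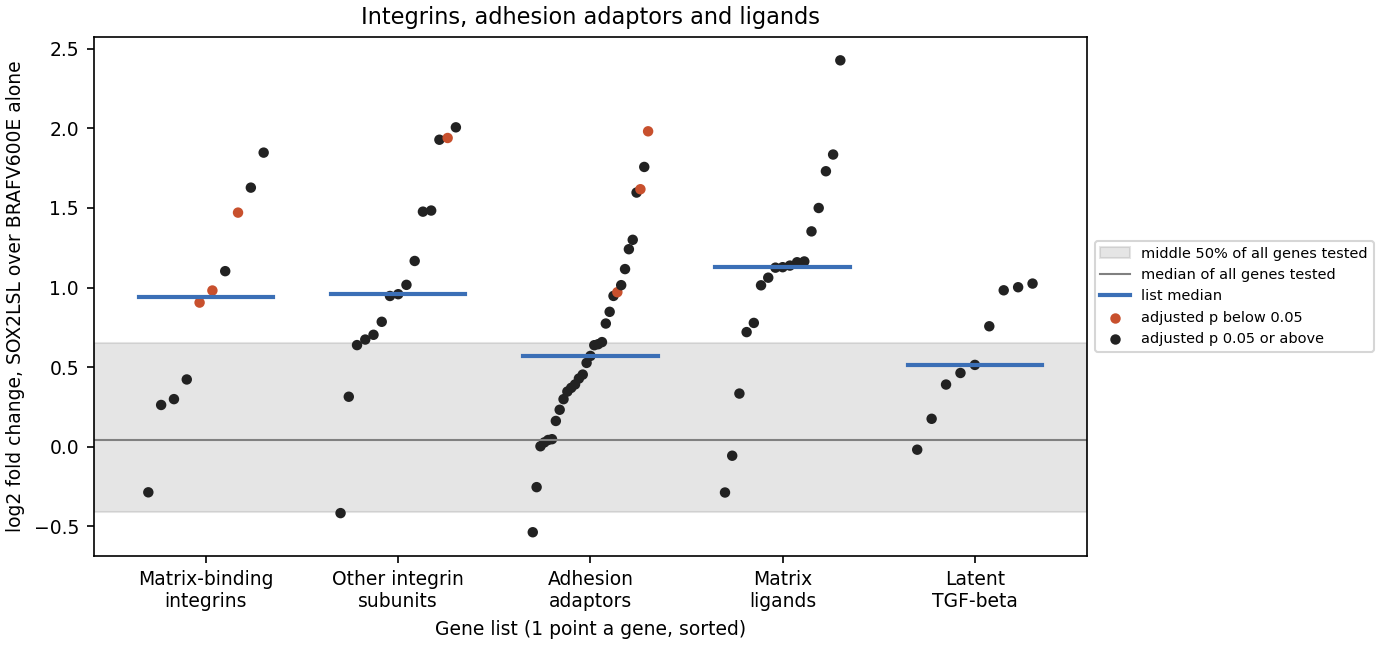
Log2 fold change (Ivl:BRAFV600E-SOX2LSL over Ivl:BRAFV600E, edgeR) of every tested gene of 5 lists, 1 point a gene in ascending order. Red points had an adjusted p below 0.05, blue bars are list medians, and the grey line and band are the median and the middle 50% of all 24433 genes. The median was 0.94 for the matrix-binding integrins, 0.96 for other integrin chains, 0.57 for adaptors, 1.13 for matrix ligands and 0.51 for latent TGF-beta genes, against 0.04 over all genes.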

How the data were processed

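Bulk tumour RNA was sequenced as paired reads of 150 bp. Per the labels and the methods of the study, reads were checked with FastQC (0.11.8), trimmed with TrimGalore, aligned to GRCm38 with HISAT2 (2.1.0) and counted per gene with featureCounts (Subread 1.6.3). The authors deposited raw gene counts in 1 table with 7 columns named by mouse. ComBat-seq is named in the methods, but whether it touched this table is not stated, nor are strand and multimapping settings. The 6 columns used were tied to a genotype through the mouse names in the study's source data. The labels name no mice, and 1 column of uncertain genotype was not used. Tumour numbers are names only.

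The 10 members and all gene lists were chosen with earlier results of these data known. The 24433 genes that reached 5 reads in some tumour were scaled by TMM and tested with edgeR 4.0.16 (R 4.3.3, quasi-likelihood test, genotype as the only factor, Benjamini-Hochberg adjustment over all genes, threshold 0.05). The test was designed for all tumours that could be tied to a genotype, which was 3 against 3. Likeness between genes used log2 CPM with a prior count of 2. Exon lengths and positions came from GENCODE M21 (GRCm38). Shares were compared by exact permutation, where the smallest two-sided p is 0.1. The totals were 23565432 to 31152826 counts per tumour. The script was tested on simulated data. Named genes were all members, the genes of the integrin, adaptor, ligand and latent TGF-beta lists with an adjusted p below 0.05 (or the 3 with the smallest p where fewer than 3 passed), and the 3 genes most correlated with the members of largest and lowest log2 fold change. Alternatives were DESeq2 1.42.0, limma 3.58.1 (voom with sample weights), DESeq2 size factors, upper-quartile scaling, no filter, filterByExpr, sex as a covariate, removal of the 10 most abundant genes, the longest transcript as length, and each tumour left out. Protein sequences were not used here. Figures were drawn with matplotlib 3.10.9.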

Additional observations from a re-analysis of the deposited data

How the results depend on the processing

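Of the 140 member log2 fold changes under 14 alternatives, 115 kept their direction and side of the threshold, 19 lost and 4 gained an adjusted p below 0.05, and 2 changed sign, both for Itga8 (-0.15 with limma, and -0.21 without Ivl:BRAFV600E-SOX2LSL tumour 1, up to 0.50 with another tumour left out). The causes were not tested. Members called numbered 6 with DESeq2, 1 with upper-quartile scaling, 0 with sex as a covariate and 0 to 4 when a tumour was left out, against 3. Over all genes the 954 calls became 3653 with DESeq2, 2142 with limma, 1759 without a filter and 974 with upper-quartile scaling. With sex as a covariate they became 228. With a tumour left out they ran from 22 (without Ivl:BRAFV600E tumour 1) to 1575 (without Ivl:BRAFV600E-SOX2LSL tumour 1). Other integrin chains called, 1 of 15, became 8 with DESeq2, 5 with limma, 4 without a filter, 2 with filterByExpr, 0 with sex and 0 to 3 with a tumour left out. Adaptors called, 3 of 31, became 13, 8, 7, 5, 0 and 0 to 8 in that order, with 1 of the 13 and 1 of the 8 lower and the others higher. Matrix ligands called, 0 of 17, became 5 with DESeq2, 1 with limma, 1 without a filter and 0 to 2 with a tumour left out. With a tumour left out, the difference in the share of Itgb3 ranged from -0.182 to 0.347 percentage points and that of Itgb6 from -0.101 to 2.00. Upper-quartile scaling moved the median of all genes from 0.04 to -0.06. No paired analysis was possible because the columns carry no replicate number. Itga8 had the fewest counts of the members, 47 to 179 per tumour.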
